A study of Mus musculus with 18 samples.

Results

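The 10 genes described here encode parts of the contractile apparatus of the heart and transcription factors that direct its formation: *Tnnt2*, *Myl7*, *Myl4*, *Myh6*, *Myh7*, *Actc1*, *Tnni1*, *Nkx2-5*, *Tbx5* and *Mef2c*. They were taken by symbol from all 18 libraries, as 10 of the 24346 genes listed in the files. The list was chosen with earlier results of these data known, so counts over it describe these genes only. RNA-seq was done on polyA RNA from hybrid female mouse embryonic stem (ES) cells, with and without the X-linked histone demethylase gene *Kdm6a*, before differentiation (D0) and after culture as embryoid bodies without leukemia inhibitory factor (LIF), a differentiation not directed towards any cell type. The comparison asks how far cardiac genes switched on in that culture depended on genotype, day and cell line.

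In the Tsix-stop line, a cross of strain-129 and *Mus castaneus* (*cast*), every group carries a transcriptional stop in *Tsix* on the strain-129 allele. It gave 2 wild-type (wt) and 2 knockout (KO) libraries at each of D0 and D15, the KO being homozygous for a deletion from exon 2 to exon 4 of *Kdm6a*. The study describes the 2 wt libraries of a day as biological replicates and the KO libraries as coming from 2 clones, and the labels do not name the clone of a library. One further library at each day came from a CRISPR control, which the study describes as a single clone put through the same CRISPR/Cas9 treatment without a deletion. The E8 line, a cross of C57BL/6J and *cast*, gave 2 wt and 2 KO libraries at each of D7 and D15, labelled as a *Kdm6a* knockout. The study describes a single E8 KO clone, with the *Kdm6a* promoter deleted, and the file names carry another number, so whether these libraries came from that clone is not settled. Its methods describe E8 libraries of other days, so nothing states that the E8 libraries of 1 group came from separate cultures, and the spread between them may be technical. ES cells of both lines were grown on inactivated mouse embryonic fibroblasts. The study describes embryoid bodies on non-adherent dishes up to D7, then plated on gelatin until D15, so D7 and D15 also differ in the form of culture.

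In the sarcomere, myosin heavy chains (*Myh6*, *Myh7*) and their light chains (*Myl4*, *Myl7*) form the thick filament that pulls on a thin filament of cardiac actin (*Actc1*) and troponins. Troponin T (*Tnnt2*) anchors the troponin complex to tropomyosin, and troponin I (*Tnni1*, the slow skeletal form also made by the fetal heart) blocks contraction until calcium binds. *Nkx2-5*, *Tbx5* and *Mef2c* encode transcription factors that act early in the cardiac lineage, alongside GATA factors and serum response factor, and switch on many sarcomere genes.

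Promoters are shown for 3 members, an actin, a myosin light chain and a troponin, since their upstream bases hold matches to the letters that cardiac regulators are known to bind. Each is the 250 bases before a RefSeq gene start (GRCm38.p6), 5′ to 3′ on the gene's strand, and capitals mark a match to 1 of 6 motifs searched on both strands: GATAA (GATA factors), AAGTG (NKX2-5), AGGTGT (T-box factors), TATAAA, the CArG box of serum response factor and the MEF2 site.
Actc1, chr2:114052876-114053125, minus strand: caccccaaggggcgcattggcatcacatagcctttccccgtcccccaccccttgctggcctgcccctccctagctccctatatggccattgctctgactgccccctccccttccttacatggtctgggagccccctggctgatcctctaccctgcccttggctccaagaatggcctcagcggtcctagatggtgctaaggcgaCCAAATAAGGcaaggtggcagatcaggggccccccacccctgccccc
Myl7, chr11:5898783-5899032, minus strand: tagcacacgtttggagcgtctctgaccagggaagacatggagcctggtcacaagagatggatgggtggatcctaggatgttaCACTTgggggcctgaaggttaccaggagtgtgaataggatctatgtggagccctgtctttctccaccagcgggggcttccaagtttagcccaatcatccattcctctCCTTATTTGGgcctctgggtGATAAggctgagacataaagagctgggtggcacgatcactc
Tnnt2, chr1:135836084-135836333, plus strand: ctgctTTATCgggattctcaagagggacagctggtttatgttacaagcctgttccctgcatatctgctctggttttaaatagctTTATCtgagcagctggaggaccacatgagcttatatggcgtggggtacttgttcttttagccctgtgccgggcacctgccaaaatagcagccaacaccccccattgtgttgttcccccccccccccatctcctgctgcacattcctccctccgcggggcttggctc
The *Actc1* promoter held a CArG box 47 to 38 bases before the start, and the *Myl7* promoter held one 61 to 52 bases before it. *Myl7* also had GATAA 41 to 37 bases before its start and AAGTG, on the other strand, 168 to 164 bases before it. This *Tnnt2* start had GATAA, on the other strand, at 245 to 241 and at 166 to 162 bases. The other *Tnnt2* start (chr1:135836739-135836988) held no match. Over the 9 members with a promoter in the RefSeq table, a CArG box lay in 2, against 1.47% of all 32851 promoters of the same length. GATAA was in 3 members (22.6% of all promoters), AAGTG in 6 (40.7%), AGGTGT in 2 (11.8%), TATAAA in 1 (12.4%) and the MEF2 site in 0 (1.69%). A member with several starts, up to 14 starts over the 9 members, was counted once, so its chance of a match is higher than that of a single promoter. These matches describe letters only, and *Tbx5* is named without a promoter.

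In mm10 coordinates (GENCODE), the thick filament genes were *Myh6* (chr14:54941921-54966927, minus strand), *Myh7* (chr14:54970684-54994626, minus strand), *Myl4* (chr11:104550663-104595753, plus strand) and *Myl7* (chr11:5896637-5898782, minus strand). The thin filament genes were *Actc1* (chr2:114047282-114053548, minus strand), *Tnnt2* (chr1:135836354-135852260, plus strand) and *Tnni1* (chr1:135779434-135810989, plus strand). The transcription factor genes were *Nkx2-5* (chr17:26838664-26845009, minus strand), *Tbx5* (chr5:119832668-119885219, plus strand) and *Mef2c* (chr13:83504034-83667080, plus strand). *Myh6* and *Myh7* are close paralogs lying side by side, and *Actc1* is nearly identical in its coding part to other actins, so how their shared reads were split is uncertain, as is counting by strand, which the sources used here do not give.

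Tsix-stop libraries held between 51091148 and 68796172 counts, and the E8 files give TPM, transcript levels scaled for length and depth, with no count, so E8 depth is unknown. *Kdm6a* itself had between 1521 and 7813 counts in KO libraries and between 6033 and 11966 in wt. The CRISPR control had 8172 counts at D0 and 5480 at D15. KO replicate 1 had 7813 and 5487 counts at these days, and KO replicate 2 had 3108 and 1521. The gene total of *Kdm6a* does not resolve the deleted exons and so checks nothing, also for the control. The difference between KO and wt did not pass at D0 (log2 fold change -0.97, adjusted p = 0.303) or D15 (-1.03, adjusted p = 0.189, edgeR). In E8 the gene followed the labels, at 46.7 to 47.8 TPM in wt and 0.00578 to 0.0319 TPM in KO. Pluripotency markers were all present at 1 TPM or more in every library, 8 of 8, also at D15, with summed levels from 4477 to 17465 TPM. The CRISPR control files carry a KO name, while the labels call both a negative control, and the labels were followed here.

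In wt Tsix-stop cells the cardiac genes were low at D0 and higher at D15 in both libraries. *Myh7*, the slow myosin heavy chain, stood at 0.415 and 0.328 CPM (counts scaled to library size) at D0 and at 13.3 and 17.6 CPM at D15, a 41.5-fold ratio of the means (log2 fold change 5.36 ± 0.31 SE, adjusted p = 4.23e-06). *Myh6*, the fast heavy chain, was at 0.815 and 1.33 CPM at D0 and 4.20 and 6.24 CPM at D15, a 4.87-fold ratio. *Myl4*, the atrial essential light chain, went from 5.08 and 3.31 to 21.3 and 24.9 CPM, a 5.51-fold ratio. Among thick filament genes the smallest step was that of *Myl7*, the atrial regulatory light chain. It already stood at 7.83 and 6.21 CPM at D0 and reached 11.1 and 14.7 CPM, a 1.84-fold ratio that stayed under the 2-fold limit (log2 fold change 0.88 ± 0.33, adjusted p = 0.0408). In each of these 4 genes both D15 libraries lay above both D0 libraries, as in 43.8% of all genes tested.

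Thin filament genes rose as well. Cardiac actin, *Actc1*, had 0 counts in both wt libraries at D0, where 3 counts a library is the limit that 0 allows, and 999 and 1086 counts at D15, so it was at least 361-fold higher. *Tnnt2* rose from 1.63 and 1.00 to 10.5 and 12.9 CPM (8.88-fold) and *Tnni1* from 3.43 and 2.21 to 23.5 and 30.6 CPM (9.60-fold). Of the transcription factors, *Mef2c* went from 2 and 3 counts to 402 and 273 counts, a ratio of 140 with a counting interval of 59.8 to 433. *Nkx2-5* stood at 0.215 and 0.155 CPM at D0 and 1.05 and 2.06 CPM at D15, and *Tbx5* at 0.154 and 0.207 and 1.27 and 1.55 CPM. Both D15 libraries again lay above both D0 libraries for each of these genes.

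A gene was tested where it reached 2.5 CPM in at least 2 libraries, and it was called at a false discovery rate of at most 0.1 and a change of at least 2-fold. By that rule 8 members were tested, without *Nkx2-5* and *Tbx5*, and 3 of the 8 (*Myh6*, *Myh7* and *Mef2c*) passed only through the wt libraries at D15. *Tnnt2* reached 2.5 CPM in 3 libraries, 2 of them wt at D15, so it would not have passed without these either. A group in which a gene had to be high cannot be set against the others by a count over such genes, so the counts below describe the members and are read no further. For these 3 genes and *Tnnt2*, a p-value of a comparison with wt at D15, above or below, is alone no support for a difference. The step from D0 to D15 in wt was called higher for 7 of the 8, beside 24.2% of the 13121 genes tested. In bulk libraries, fewer cells of a type and less RNA in each such cell cannot be told apart, here or in any comparison below.

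**Figure D1:**
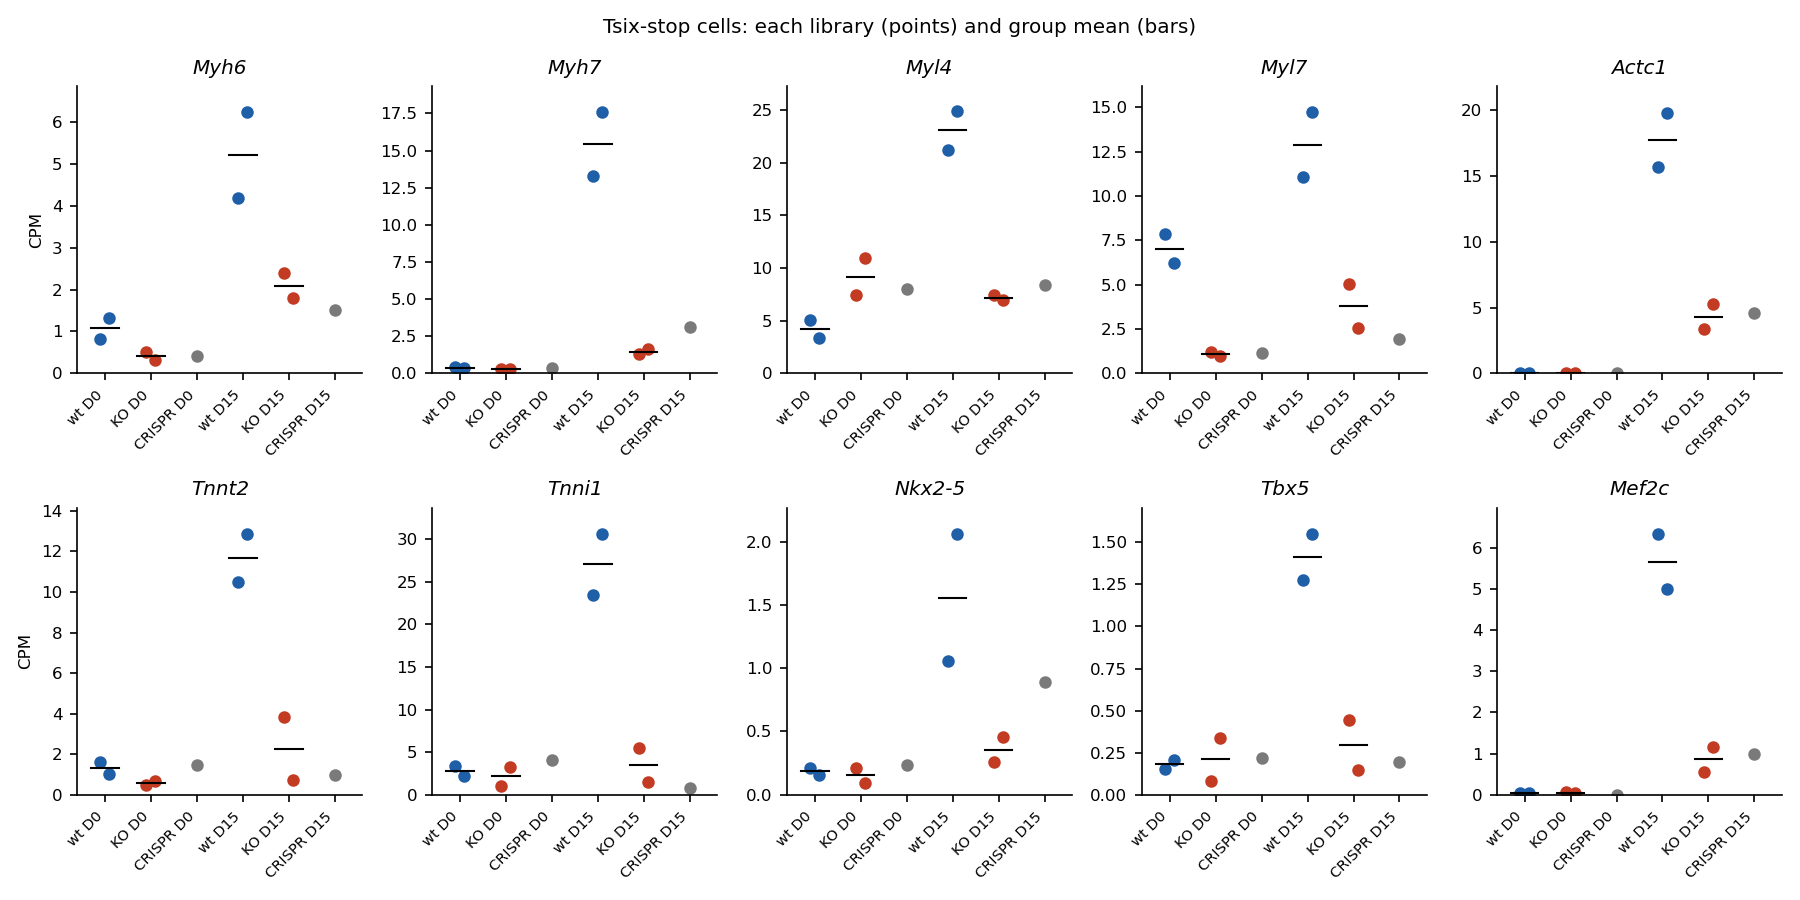
Level of each member in the Tsix-stop libraries, in CPM on linear axes that differ between genes, with a point for each library and a bar for the group mean. For each of the 10 genes both wt libraries at D15 lie above every other library, and the lone CRISPR control library at D15 lies below both of them.

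At D0, before differentiation, 3 of the 8 tested members were called between KO and wt, and 5 of the 10 members overlapped between them. *Myl7* was the exception by size, at 7.83 and 6.21 CPM in wt, against 1.22 and 0.971 CPM in KO, with no overlap (log2 fold change -2.68 ± 0.36, adjusted p = 0.00360). *Myl4* went the other way, at 5.08 and 3.31 CPM in wt, against 7.41 and 11.0 CPM in KO (1.13 ± 0.27, adjusted p = 0.0279). *Myh6* was at 0.815 and 1.33 CPM in wt, against 0.510 and 0.308 CPM in KO (-1.39 ± 0.42, adjusted p = 0.0640). These calls, 2 lower and 1 higher, stand beside 8.12% of all genes tested, and both KO libraries lay below both wt libraries for 4 of the 10 members, beside 29.5% of genes, and above them for 1, beside 27.7% of genes. *Tnnt2* (-1.23 ± 0.68, adjusted p = 0.276), *Tnni1*, *Myh7* and *Mef2c* did not pass, the last 3 with log2 fold changes of -0.38, -0.30 and 0.22.

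The D0 calls rested on few libraries. The CRISPR control at D0 had 1.16 CPM of *Myl7*, 7.96 of *Myl4* and 0.404 of *Myh6*, each within the range of the KO libraries, and no member was called between KO and this library (0 of 8 by edgeR, and 0 of 8 with an unadjusted p under 0.05, beside 2.31% of genes called). With the control counted with the wt libraries, edgeR left no D0 call, *Myl7* included (-2.21, adjusted p = 0.400, the others from 0.564 to 1). *Myl4* lost its call without wt D0 replicate 2 (0.86, adjusted p = 0.106) or KO D0 replicate 2 (0.82, adjusted p = 0.140). *Myh6* lost its call without either of these (-0.996 and -1.06, adjusted p = 0.212 and 0.279) or without wt D15 replicate 1 or 2 (adjusted p = 0.106 and 0.111). The study passed ES cells over gelatin before use to remove the feeder cells. Fibroblast markers, which feeder cells also carry, summed to 17.7 and 21.5 TPM in wt at D0, to 4.22 and 4.50 TPM in KO and to 6.02 TPM in the CRISPR control, with 2 or 3 of the 8 markers at 1 TPM or more. Their part in the D0 differences was not tested.

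At D15 every member was lower in both KO libraries than in both wt libraries, 10 of 10, beside 37.9% of all genes tested. The slow heavy chain *Myh7* had the largest ratio of means, at 13.3 and 17.6 CPM in wt, against 1.27 and 1.61 CPM in KO, 10.7-fold (log2 fold change -3.42 ± 0.28, adjusted p = 0.000204). *Myh6* was at 4.20 and 6.24 CPM in wt, against 2.40 and 1.79 CPM in KO, 2.49-fold (-1.32 ± 0.37, adjusted p = 0.0268). The light chains lay between these. *Myl4* was at 21.3 and 24.9 CPM in wt, against 7.46 and 6.93 CPM in KO, 3.21-fold (-1.68 ± 0.27, adjusted p = 0.00249), and *Myl7* at 11.1 and 14.7 and 5.06 and 2.57 CPM, 3.38-fold (-1.76 ± 0.34, adjusted p = 0.00582).

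Troponins varied more between the KO libraries than other members did. *Tnni1* was at 23.5 and 30.6 CPM in wt, against 5.44 and 1.50 CPM in KO, 7.81-fold (log2 fold change -2.96 ± 0.64, adjusted p = 0.00945), and *Tnnt2* at 10.5 and 12.9 and 3.84 and 0.712 CPM, 5.13-fold (-2.36 ± 0.63, adjusted p = 0.0219). The second KO library was the lower one for both, and the gap between KO libraries reached 5.40-fold for *Tnnt2*, against a median of 1.87-fold over the 10 members. *Actc1* was at 15.7 and 19.8 CPM in wt, against 3.34 and 5.29 CPM in KO, 4.12-fold (-2.04 ± 0.35, adjusted p = 0.00467). Here the second KO library was the higher one.

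*Mef2c* was at 6.32 and 4.98 CPM in wt, against 0.549 and 1.17 CPM in KO, 6.59-fold (log2 fold change -2.72 ± 0.41, adjusted p = 0.00212). *Nkx2-5*, the earliest of the cardiac homeobox factors, was at 1.05 and 2.06 CPM in wt, against 0.257 and 0.456 CPM in KO, a 4.37-fold ratio that was not tested under the filter. *Tbx5* was at 1.27 and 1.55 and 0.446 and 0.146 CPM, a 4.77-fold ratio. With no filter on low counts both were lower in KO (adjusted p = 0.00676 and 0.0121). All 8 tested members were called lower, beside 11.1% of genes called lower in the same comparison. Of these, *Myh6*, *Myh7*, *Mef2c* and *Tnnt2* entered the test because they were high in wt at D15, so their calls alone are no support for a difference. With no filter they were called lower as well (edgeR, adjusted p = 0.0172, 3.57e-06, 0.000219 and 0.00546). *Myh6* (-1.003, adjusted p = 0.189) and *Tnnt2* (-2.20, adjusted p = 0.104) lost their calls without wt D15 replicate 2.

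The CRISPR control, which the study describes as carrying no *Kdm6a* deletion, was low at D15 as well. Its library lay below both wt libraries for 10 of 10 members, beside 39.8% of all genes tested, and all 8 tested members were called lower than wt, beside 5.89% of genes called lower. *Tnni1* stood at 0.821 CPM there, 32.9-fold under the wt mean (log2 fold change -5.04 ± 1.00, adjusted p = 0.0212), and *Tnnt2* at 0.979 CPM, 11.9-fold under it (-3.58 ± 0.91, adjusted p = 0.0493). *Myl7* was at 1.94 CPM (6.65-fold under wt), *Myh7* at 3.11 CPM (4.96-fold), *Actc1* at 4.60 CPM (3.87-fold) and *Myl4* at 8.42 CPM (2.74-fold). These calls assume that the lone library varies as the other groups do. Those of *Myh6*, *Myh7*, *Mef2c* and *Tnnt2* are also limited by the filter, which these genes passed because they were high in wt at D15. Its values sit in the range of the KO libraries or below it for 7 of the 10 members, and above both KO libraries for *Myh7*, *Myl4* and *Nkx2-5*.

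Set against this CRISPR control in place of wt, KO at D15 differed for 1 of 8 tested members, beside 6.87% of all genes tested. That member was *Myh7*, at 1.27 and 1.61 CPM in KO and 3.11 CPM in the control (log2 fold change -1.11 ± 0.32, adjusted p = 0.0727). For *Tnni1* the difference was 2.08 ± 0.89 (adjusted p = 0.185), for *Tnnt2* 1.22 ± 0.83 (0.398), for *Myl7* 0.98 ± 0.44 (0.211) and for *Myh6* 0.46 ± 0.48 (0.590), each with KO on the higher side. *Actc1* (-0.09 ± 0.43), *Mef2c* (-0.22 ± 0.51) and *Myl4* (-0.23 ± 0.32) lay close to 0. With the control counted with the wt libraries, 1 of 8 members, again *Myh7*, was called lower in KO at D15 (-2.98, adjusted p = 0.0284), the others having adjusted p from 0.103 to 0.352. With 1 library of 1 clone, the genotype, the clone and the culture cannot be told apart in these comparisons.

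**Figure D2:**
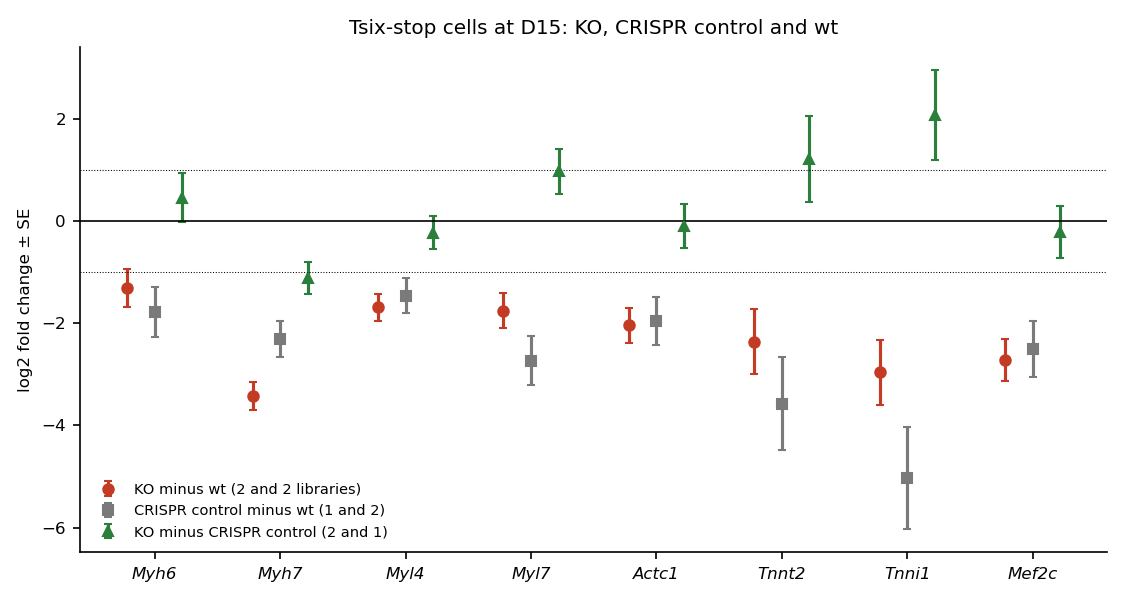
Differences at D15 in Tsix-stop cells for the 8 tested members, as log2 fold changes with SE on the vertical axis (circles KO minus wt, squares CRISPR control minus wt, triangles KO minus CRISPR control, dotted lines at a 2-fold change). Circles and squares all lie under the lower dotted line, and of the triangles *Myh7* alone lies under it.

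Markers of other cell types moved with the same groups. Visceral endoderm markers summed to 829 to 954 TPM in wt at D15, to 29.1 to 60.4 TPM in KO and to 31.4 TPM in the CRISPR control, with 6 of 6 markers at 1 TPM or more in wt and in the control and 5 of 6 in KO. Fibroblast markers summed to 2650 to 2986 TPM in wt, 209 to 264 TPM in KO and 114 TPM in the control, with 8, 6 and 7 of 8 markers at 1 TPM or more. Smooth muscle markers summed to 2909 to 3041, 534 to 959 and 690 TPM in the same order. None of these markers was at 0 at D15 in Tsix-stop cells. Pluripotency markers summed to 8714 to 9324 TPM in wt, 10913 to 13789 TPM in KO and 7754 TPM in the control. The part of the cell mixture in the cardiac differences was not tested.

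From D0 to D15 within KO cells, some members still moved. *Myl7* rose from 1.22 and 0.971 to 5.06 and 2.57 CPM (log2 fold change 1.80 ± 0.36, adjusted p = 0.00275), and *Actc1* from 0 and 2 counts to 195 and 290 counts, a ratio of 269 with a counting interval of 74.2 to 2231. *Myh6* (2.36 ± 0.42), *Myh7* (2.24 ± 0.31) and *Tnnt2* (2.02 ± 0.68) also rose, and *Mef2c* went from 4 and 2 counts to 32 and 64 (17.8, interval 7.87 to 49.6). *Myl4* stayed at 7.41 and 11.0 CPM at D0 and 7.46 and 6.93 CPM at D15 (-0.35 ± 0.26, adjusted p = 0.277), and *Tnni1* at 1.05 and 3.27 and 5.44 and 1.50 CPM (0.68 ± 0.63, adjusted p = 0.378). In all, 6 of 8 tested members were called higher, beside 20.0% of genes. *Tnnt2* lost this call without KO D0 replicate 1 (1.78, adjusted p = 0.128) or KO D15 replicate 1 (0.34, adjusted p = 0.549), and *Tnni1* gained one without KO D0 replicate 2 or KO D15 replicate 2. In the CRISPR control, *Myl4* was at 7.96 CPM at D0 and 8.42 at D15, and *Tnni1* at 4.13 and 0.821 CPM.

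The difference between KO and wt changed from D0 to D15 for 4 of 8 tested members, all towards lower in KO, beside 10.5% of genes. The change was -3.12 ± 0.43 for *Myh7* (adjusted p = 0.00263) and -2.81 ± 0.38 for *Myl4* (adjusted p = 0.00245), which was higher in KO at D0 and lower at D15. *Mef2c* (-2.94 ± 1.03, adjusted p = 0.0702) and *Tnni1* (-2.58 ± 0.88, adjusted p = 0.0651) passed narrowly. The call of *Mef2c* was lost without wt D0 replicate 1, wt D15 replicate 1, wt D15 replicate 2 or KO D0 replicate 1 (adjusted p from 0.116 to 0.311). That of *Tnni1* was lost without any 1 of the 4 wt libraries or without KO D0 replicate 2 (0.113 to 0.242). For *Actc1*, with 0 to 2 counts a library at D0, the fitted value of -5.15 ± 2.11 did not pass (adjusted p = 0.116). With the CRISPR control added to wt no member passed (adjusted p from 0.126 to 0.952). *Myl7*, already lower at D0, moved by 0.93 ± 0.48 (adjusted p = 0.192) and passed without KO D15 replicate 2 (1.35, adjusted p = 0.0370).

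By length-scaled level, *Myl7* had the highest mean of the members in every Tsix-stop group other than KO at D0, where *Myl4* (mean 7.28 TPM) stood above it (6.79 TPM) with overlapping libraries. In wt at D0 it gave 83.7% and 85.2% of the summed member TPM, and in wt at D15 42.2% and 43.4%. In wt at D15 the order by mean TPM was *Myl7* (72.7 and 93.1 TPM), *Actc1* (37.7 and 45.7), *Tnni1* (25.3 and 31.7), *Myl4* (17.8 and 20.0), *Myh7* (5.98 and 7.60), *Tnnt2* (5.26 and 6.19), *Nkx2-5* (2.38 and 4.47), *Myh6* (2.42 and 3.46), *Mef2c* (1.18 and 1.56) and *Tbx5* (1.06 and 1.24). Of neighbours in this order, *Myh7* and *Tnnt2*, *Nkx2-5* and *Myh6*, and *Mef2c* and *Tbx5* overlapped between libraries, and the other pairs did not. The members together made 43.0 and 52.1 TPM in wt at D0, 172 and 215 TPM in wt at D15, 40.5 and 55.9 TPM in KO at D15 and 36.3 TPM in the CRISPR control at D15. The order, shares and sums depend on the length used, all annotated exon bases of a gene. That was 590 bases for *Myl7*, against 3600 for *Tnni1* and 7752 for *Tnnt2*. By counts in wt at D15, *Myl7* (703 and 807) lay below *Tnni1* (1493 and 1678).

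E8 cells gave another picture. Members were low in both genotypes, and in wt most were at their higher level at D7, not at D15. In wt, *Actc1* was at 0.973 and 0.777 TPM at D7 and 0.190 and 0.153 TPM at D15, *Myl7* at 20.6 and 18.1 and 11.2 and 8.35 TPM, and *Mef2c* at 0.0134 and 0.0286 and 0 and 0.00592 TPM. For 8 of the 10 members both wt libraries at D15 lay below both at D7, beside 35.6% of genes tested, the exceptions being *Nkx2-5* (0.468 and 0.598 and 1.24 and 1.54 TPM) and *Tbx5* (0.242 and 0.199 and 0.406 and 0.330 TPM), which were higher at D15. Only *Myl4*, *Myl7*, *Tnnt2* and *Tnni1* reached 2.5 TPM in 2 libraries. *Tnnt2* did so only in KO at D15, and *Tnni1* only in wt libraries. The limma test on log2(TPM + 1), a scale that understates changes of low genes, called 0 of these 4 between D7 and D15 in wt, beside 1.41% of 12452 genes tested, although 4 of 4 had an unadjusted p under 0.05, the changes being under 2-fold.

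At D7 the atrial light chains were lower in KO. *Myl7* was at 20.6 and 18.1 TPM in wt and 2.95 and 4.36 TPM in KO, 5.30-fold (log2 fold change -2.14 ± 0.17, adjusted p = 1.20e-05), and *Myl4* at 8.64 and 10.8 and 2.54 and 3.03 TPM, 3.48-fold (-1.50 ± 0.17, adjusted p = 0.000107). *Tnni1* was at 4.16 and 3.21 TPM in wt and 1.67 and 1.62 TPM in KO, under the 2-fold limit on this scale (-0.82 ± 0.12, adjusted p = 0.000426), and *Tnnt2* overlapped (1.34 and 2.26 and 1.05 and 1.67 TPM). Thus 2 of 4 were called lower, beside 6.18% of genes. Over all 10 members, KO lay below wt without overlap in 4, beside 37.8% of genes, and above it in 5, beside 52.6%. Among untested members, *Tbx5* was lower in KO, at 0.242 and 0.199 TPM in wt and 0.0656 and 0.0144 TPM in KO. *Myh7* was on the other side, at 0.239 and 0.292 TPM in wt and 1.43 and 1.45 TPM in KO, as were *Actc1* (0.973 and 0.777 and 2.94 and 1.73 TPM) and *Mef2c* (0.0134 and 0.0286 and 0.475 and 0.631 TPM). Rescaling each library to 1 median moved the median difference of all genes from 0.10 to -0.11 at D7 and from 0.09 to -0.08 at D15, and changed none of these calls.

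At D15 the 4 tested members of E8 lay on both sides of wt, 2 of them below 0, with a median log2 fold change of -0.018. *Tnnt2* was at 0.571 and 0.812 TPM in wt and 2.96 and 4.14 TPM in KO, 5.13-fold higher (log2 fold change 1.42 ± 0.21, adjusted p = 0.000518), the 1 of 4 tested members that was called, beside 7.67% of genes called higher. It entered the test only through these KO libraries, where it was high, so this call alone is no support for a difference. With no filter *Tnnt2* was called as well (limma, 1.42 ± 0.22, adjusted p = 0.00250). *Actc1* was at 0.190 and 0.153 TPM in wt and 2.04 and 2.15 TPM in KO, a 12.2-fold ratio, and was called once the filter was left out (1.40 ± 0.17, adjusted p = 0.000772). *Myh7* stood at 0.153 and 0.155 TPM in wt and 0.888 and 0.755 TPM in KO, and *Mef2c* at 0 and 0.00592 and 0.226 and 0.292 TPM, both higher in KO and under 1 TPM throughout. *Myl7* alone was lower in both KO libraries, at 11.2 and 8.35 TPM in wt and 5.96 and 6.74 TPM in KO (-0.54 ± 0.17, adjusted p = 0.0222, under 2-fold). *Myl4* (6.07 and 5.69 and 8.04 and 5.24 TPM) and *Tnni1* (3.04 and 2.36 and 2.38 and 2.20 TPM) overlapped, and the sign of *Myl4* (0.13) turned under rescaling (-0.02). In 7 of 10 members, KO exceeded wt in both libraries without overlap, beside 52.0% of genes, and in 1 it lay below wt in both, beside 35.2%. Of the 7, *Myh6* (1.38-fold), *Tbx5* (1.34-fold) and *Nkx2-5* (1.15-fold) were higher by small steps.

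Between D7 and D15 the E8 difference between KO and wt moved upwards for 3 of 4 tested members, beside 3.89% of genes. The change was 1.62 ± 0.25 for *Myl4* (adjusted p = 0.00105), 1.60 ± 0.24 for *Myl7* (adjusted p = 0.000997) and 1.66 ± 0.29 for *Tnnt2* (adjusted p = 0.00217), all with limma. *Tnnt2* entered this test only through KO at D15, where it was high, so that value alone is no support for a change. It passed with no filter too (limma, adjusted p = 0.00821). Within KO cells, *Myl4* was at 2.54 and 3.03 TPM at D7 and 8.04 and 5.24 TPM at D15, and *Tnnt2* at 1.05 and 1.67 and 2.96 and 4.14 TPM, changes under 2-fold on the log2(TPM + 1) scale (0.99 and 0.95). There 0 of 4 members were called by limma, beside 6.11% of genes, with 4 of 4 at an unadjusted p under 0.05.

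**Figure D3:**
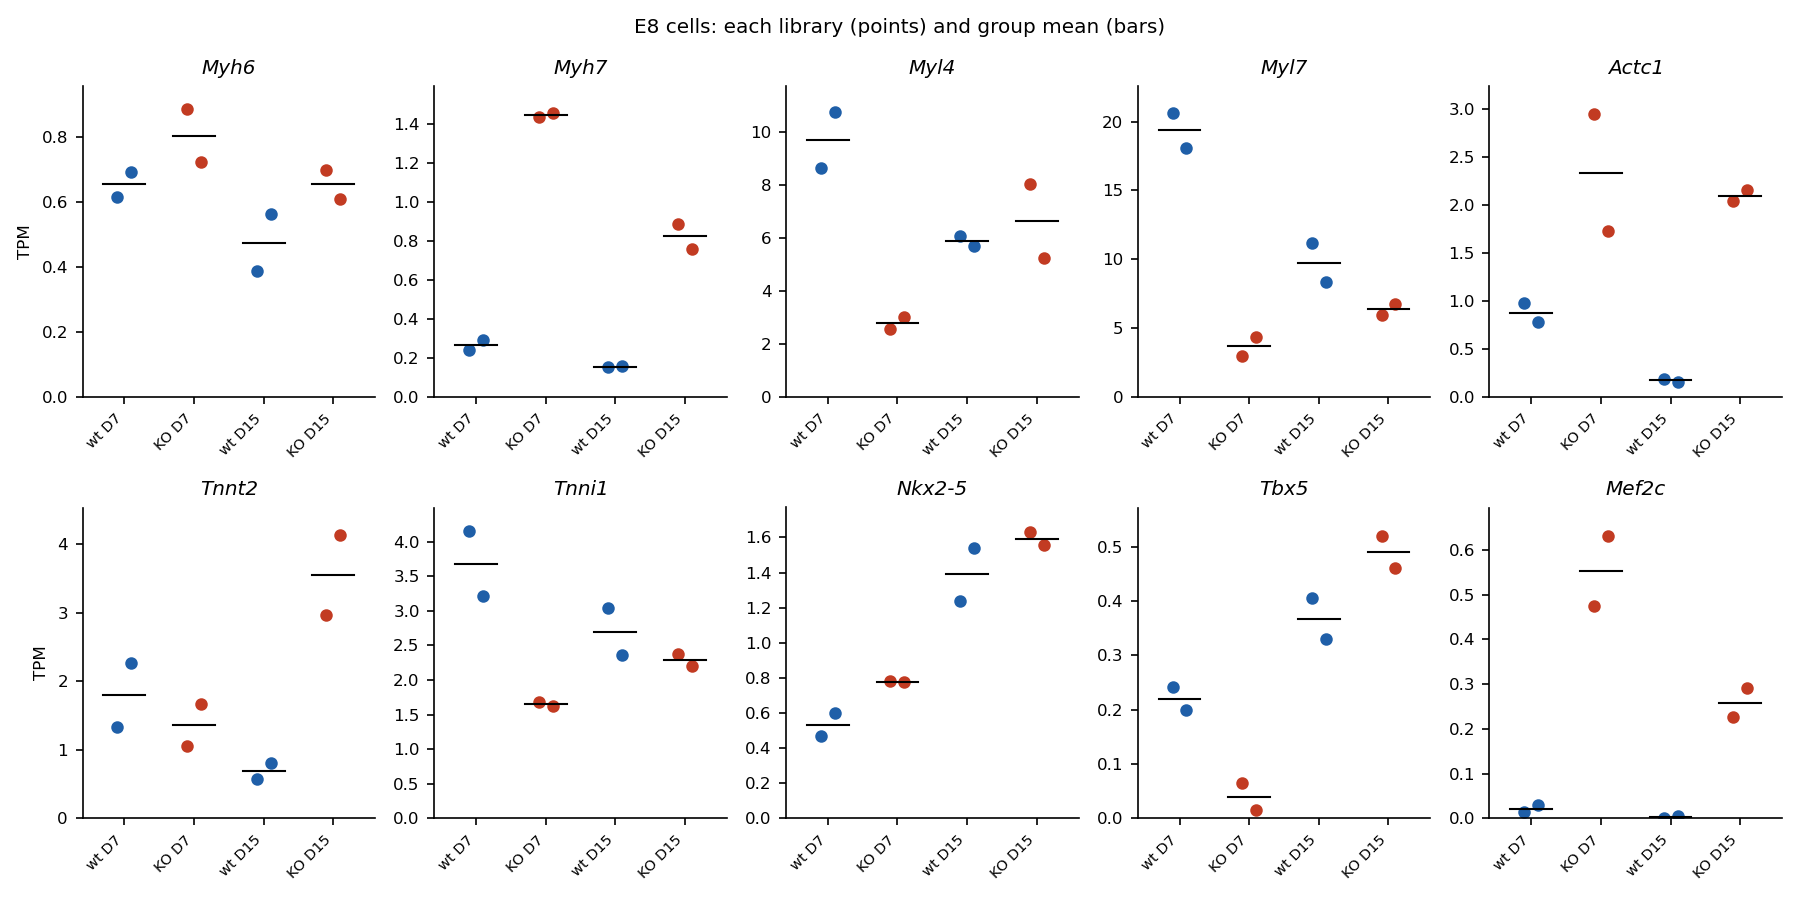
Level of each member in the E8 libraries, in TPM on linear axes that differ between genes, with a point for each library and a bar for the group mean. *Myl7* and *Myl4* are lower in KO than in wt at D7, while *Myh7*, *Actc1* and *Mef2c* are higher in KO at both days and *Tnnt2* is higher in KO at D15.

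In E8 too, other cell type markers moved with the genotype. Visceral endoderm markers summed to 17.3 to 17.8 TPM in wt and 1298 to 1301 TPM in KO at D7, and to 14.8 to 15.0 and 303 to 305 TPM at D15, with 6 of 6 markers at 1 TPM or more in KO and 2 to 4 in wt. Fibroblast markers summed to 21.7 to 23.1 TPM in wt and 57.2 to 58.6 TPM in KO at D15 (1 and 6 of 8 markers at 1 TPM or more, *Lum* being at 0 in 1 wt library), and smooth muscle markers to 39.9 to 43.8 and 144 to 145 TPM, with *Actg2* at 0 in 1 KO library. Pluripotency markers summed to 16695 to 17465 TPM in wt and 7702 to 7913 TPM in KO at D15. Their part in the differences of the cardiac genes was not tested.

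Side by side at D15, KO against wt had opposite signs in the lines for all members but *Myl7* and *Tnni1*. Those 2 were below 0 in both, *Myl7* at -1.78 in Tsix-stop cells and -0.54 in E8, and *Tnni1* at -2.82 and -0.16, on the scale used next. On log2(TPM + 1), *Actc1* was -1.96 ± 0.35 in Tsix-stop cells and 1.40 ± 0.03 in E8, *Myh7* -2.25 ± 0.17 and 0.66 ± 0.05, and *Tnnt2* -1.77 ± 0.54 and 1.42 ± 0.21. These SEs use only the spread of the 2 libraries of each group and are themselves uncertain, while the SEs that follow are those of limma. The difference between the lines was 3.37 ± 0.29 for *Actc1* (adjusted p = 0.000120), 2.90 ± 0.20 for *Myh7* (adjusted p = 4.62e-05) and 3.19 ± 0.46 for *Tnnt2* (adjusted p = 0.00103). For *Tnni1* it was 2.66 ± 0.54 (adjusted p = 0.00470), for *Myl4* 1.66 ± 0.24 (0.00107) and for *Myl7* 1.24 ± 0.40 (0.0307). These were 6 of 6 tested members, beside 17.8% of 13205 genes. *Myh7* entered this test only through the Tsix-stop wt libraries, and *Tnnt2* only through those and the E8 KO libraries, where each was high. A difference was so built into their choice, and their values are no support for one. The call of *Myl7* was lost without wt D15 replicate 2 (1.07, adjusted p = 0.107) or KO D15 replicate 2 (0.80, under 2-fold) of Tsix-stop cells, or without wt D15 replicate 2 of E8 (1.05, adjusted p = 0.107). The lines differ in genetic background, *Tsix* allele, the described *Kdm6a* deletion and the tools that made the values, and these cannot be told apart. The Tsix-stop side rests on the wt libraries at D15, and the CRISPR control lay below those for 10 of 10 members.

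**Figure D4:**
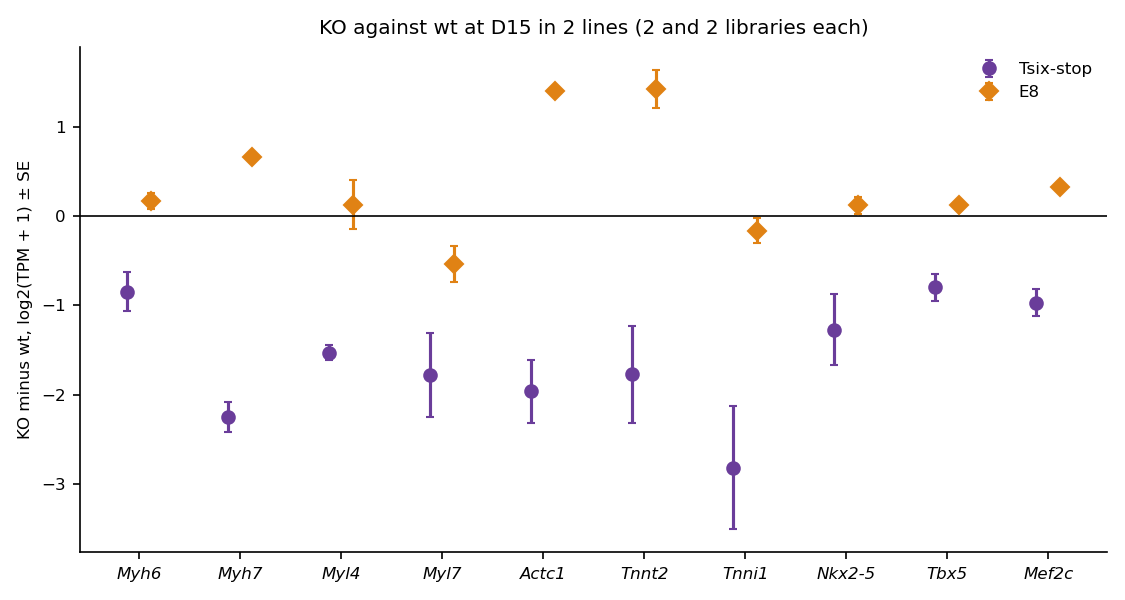
Difference between KO and wt at D15 on the log2(TPM + 1) scale, for the 10 members in Tsix-stop cells (circles) and E8 cells (diamonds). The SEs use only the spread of the 2 libraries of each group. All circles lie below 0, while 8 diamonds lie above it and those of *Myl7* and *Tnni1* lie below.

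Other genes of the heart, from lists of the same pathways, are given with the count called of those tested. At D15 in Tsix-stop cells, 11.1% of all genes tested were called lower in KO. In Tsix-stop cells at D15, 10 of 15 other cardiac transcription factors were lower in KO and 0 higher, with a median log2 fold change of -1.85 against -0.0018 over all genes tested. *Hand2*, which shapes the right ventricle, was at 36.0 and 39.5 CPM in wt, 1.97 and 0.967 CPM in KO and 0.559 CPM in the CRISPR control (-4.68). *Gata4*, which acts together with *Nkx2-5* and *Tbx5*, was at 64.9 and 65.3, 9.26 and 11.2 and 12.4 CPM in the same order (-2.67), and *Tbx2* (-4.00) and *Gata6* (-3.11) were lower in KO too. Of other sarcomere genes 7 of 11 were lower and 0 higher (median -1.78), led by *Myl3* (-4.11), *Myom1* (-3.21), *Tnnc1* (-2.99) and *Mybpc3* (-2.96). Of cardiac mesoderm genes 9 of 11 were lower and 0 higher (median -1.90), among them the receptors *Pdgfra* (-3.26) and *Kdr* (-2.80) and the ligands *Bmp2* (-2.54) and *Fgf8* (-2.32). Genes of calcium handling, conduction and cardiac hormones had 1 of 5 lower, the L-type channel *Cacna1c* (-1.66). The CRISPR control was not low for all of these lists. Its cardiac mesoderm genes summed to 476 TPM at D15, above wt (311 to 329 TPM) and KO (102.5 to 163 TPM), and its other sarcomere genes to 753 TPM, above wt (685 to 722 TPM) and KO (213 to 423 TPM). Its other cardiac transcription factors, at 454 TPM, lay between KO (277 to 369 TPM) and wt (610.1 to 628 TPM). Most of the sarcomere sum was *Tpm1*, a tropomyosin gene named after its values were seen, at 959 and 948 CPM in wt, 298 and 625 CPM in KO and 1180 CPM in the control.

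The lower levels were not particular to cardiac lists. Fibroblast markers were lower in 7 of 8 (median -3.35), led by *Dcn* (-5.61), *Lum* (-5.20), *Col3a1* (-4.51) and *Col1a1* (-3.46), and visceral endoderm markers in 5 of 6 (median -4.60), led by *Apoa1* (-5.31), *Ttr* (-5.28), *Afp* (-4.85) and *Rbp4* (-4.35). Smooth muscle markers were lower in 5 of 7 (median -1.99), with *Actg2* (-4.42), *Mylk* (-3.96), *Acta2* (-2.14) and *Tagln* (-1.99). Skeletal muscle markers had 1 of 4 lower, *Tnnt3* (-1.16), and endothelial markers 1 of 5, *Cdh5* (-1.78). Among neural markers *Tubb3* (2.08) and *Map2* (1.58) were higher and *Nes* (-1.79) lower, of 4 tested, and among pluripotency markers *Zfp42* (1.03) and *Sox2* (1.02) were higher, of 8 tested.

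In E8 at D15 several of the same lists were mostly higher in KO, beside 7.67% of all genes tested called higher. Cardiac mesoderm genes were higher in 12 of 13 (median 2.58), other cardiac transcription factors in 8 of 14 (median 1.59) and other sarcomere genes in 5 of 10 with 1 lower (median 1.04), against a median of 0.09 over all genes tested. *Gata4* was at 5.26 and 5.18 TPM in wt and 38.7 and 38.4 TPM in KO, *Hand2* at 0.111 and 0.125 and 8.03 and 8.68 TPM, and *Myl3* at 1.54 and 1.31 and 6.79 and 7.42 TPM. Calcium handling genes had 1 of 4 higher and 0 lower, with a median of -0.53. Outside the heart, 6 of 6 visceral endoderm, 5 of 6 fibroblast, 3 of 4 smooth muscle, 3 of 4 skeletal muscle, 0 of 3 endothelial and 1 of 5 neural markers were higher, and 1 of 6 fibroblast (*Thy1*, -1.80), 1 of 4 skeletal muscle (*Mylpf*, -1.74) and 1 of 8 pluripotency markers (*Dppa5a*, -1.28) were lower, these 3 being named after their values were seen. The medians of the neural (-0.57) and pluripotency markers (-0.67) were below 0, and the skeletal muscle markers summed to 317 to 320.2 TPM in wt and 113 to 119.5 TPM in KO. The effect of KO at D15 differed upwards between the lines, E8 over Tsix-stop, for 13 of 16 other cardiac transcription factors, 13 of 14 cardiac mesoderm genes and 6 of 10 other sarcomere genes, beside 17.8% of all genes tested.

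SNPs between the strain-129 and *cast* genomes split part of the Tsix-stop reads by allele, between 9210225 and 12095548 reads a library over all genes. At D15 no difference in the balance of alleles between KO and wt passed for the 8 members with enough SNP reads (0 called by edgeR, beside 4.84% of 13460 genes, and 0 of 8 with an unadjusted p under 0.05, the lowest being 0.111 for *Tnni1*). *Myl7* and *Tbx5* had too few SNP reads. In wt at D15, *Actc1* drew 50.9% (147 of 289, 45.1% to 56.6%) and 45.4% (128 of 282, 39.7% to 51.2%) of its SNP reads from the strain-129 allele, where the bracket gives the reads and a 95% Wilson interval. These intervals cover counting error only. *Tnni1* drew 48.7% (225 of 462, 44.2% to 53.3%) and 44.9% (241 of 537, 40.7% to 49.1%). So both alleles of these genes were read in differentiated wt cells.

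*Myl4* was read mostly from the strain-129 allele, most of all before differentiation. At D0 the strain-129 share was 98.2% (54 of 55, 90.4% to 99.7%) and 81.0% (17 of 21, 60.0% to 92.3%) in wt, and 98.5% (64 of 65, 91.8% to 99.7%) and 98.1% (102 of 104, 93.3% to 99.5%) in KO. The CRISPR control at D0 had 90.6% (77 of 85, 82.5% to 95.2%). Genes within 10 Mb on the same chromosome with at least 20 SNP reads had a median share of 53.1% to 53.8% in these 5 libraries, so each *Myl4* interval at D0 lay above that of its surroundings. At D15 the share was 62.6% (87 of 139, 54.3% to 70.2%) and 72.4% (110 of 152, 64.8% to 78.9%) in wt, and 81.2% (52 of 64, 70.0% to 88.9%) and 67.3% (35 of 52, 53.8% to 78.5%) in KO. The control at D15 had 70.8% (34 of 48, 56.8% to 81.8%), and the neighbours' median was 45.4% to 52.0%. In wt the D0 share of both libraries lay above both D15 shares, and the difference between the days was not tested. *Tnni1* was on the other side at D0, with 28.9% (22 of 76, 20.0% to 40.0%) and 34.5% (10 of 29, 19.9% to 52.7%) in wt.

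**Figure D5:**
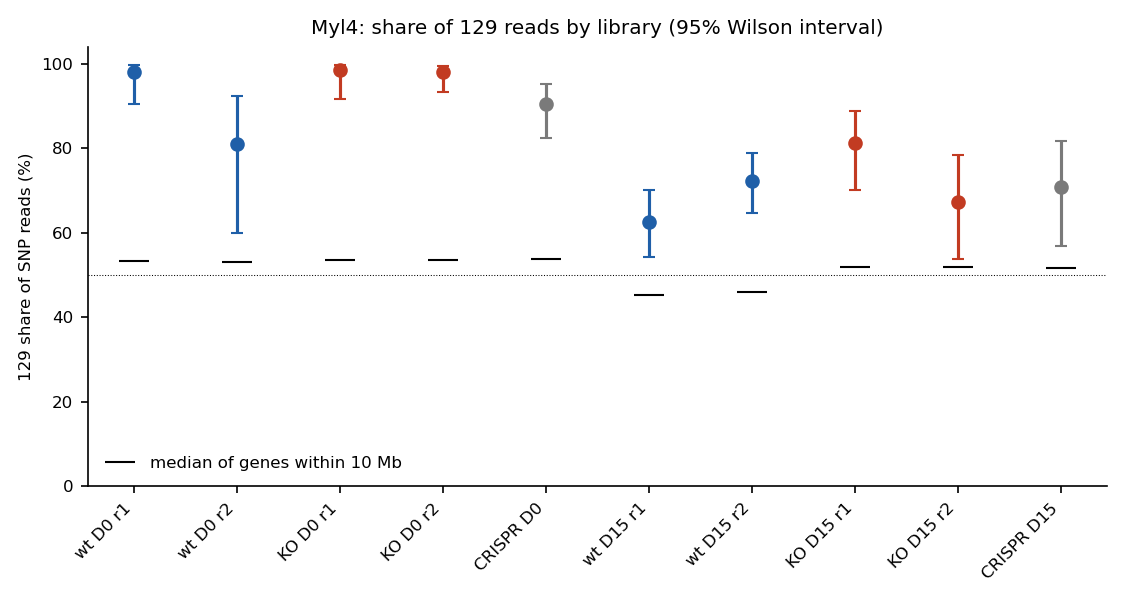
Share of *Myl4* SNP reads from the strain-129 allele in each Tsix-stop library (points, percent) with its 95% Wilson interval, and the median share of genes within 10 Mb (black bars). The D0 libraries lie between 81.0% and 98.5% and the D15 libraries between 62.6% and 81.2%. The neighbours lie between 45.4% and 53.8% and are lowest in wt at D15 (45.4% and 45.9%).

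The members moved together in Tsix-stop cells more than in E8. Over the 45 pairs of members, Pearson's r of log2(level + 1) ranged from 0.36 to 0.98 with a median of 0.82 across the 10 Tsix-stop libraries, and from -0.85 to 0.98 with a median of -0.05 across the 8 E8 libraries. Libraries of 1 group share their culture and day, so the points are not independent and the values are a description. The Tsix-stop libraries span D0 and D15 and include the CRISPR control, while those of E8 span D7 and D15. The medians of the lines thus cover unlike ranges of days. Outside the members, 5 of 11952 genes followed the members' mean most closely in both lines by the smaller of the 2 correlations. They were *Klhl6* (0.95 in Tsix-stop cells and 0.98 in E8), *Col23a1* (0.93 and 0.98), *Dpf3* (0.95 and 0.93), *Rgs5* (0.95 and 0.92) and *Gas1* (0.94 and 0.92). *Dpf3*, which encodes a chromatin reader of the BAF complex, was at 6.04 and 6.17 CPM in wt at D15, 1.37 and 1.51 CPM in KO and 2.25 CPM in the CRISPR control, and in E8 at D15 it was at 0.177 and 0.222 TPM in wt and 3.57 and 3.62 TPM in KO.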

How the data were processed

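Libraries were grouped by the labels. The authors prepared TruSeq V2 polyA libraries and read 75 bp single ends. The submitters' processing notes name Bowtie2 2.4.5 and TopHat2 2.1.1 with the mm10 genome. Annotation and strand setting are not given in the sources used here. For Tsix-stop cells the authors deposited estimated counts per gene (the column for reads placed on the 129 genome) and SNP reads of each allele. These were rounded, 7.10% not being whole. For E8 the authors deposited TPM, which keep no depth.

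Counts were tested with edgeR 4.0.16 (TMM, quasi-likelihood, 1 fit over wt and KO at both days) in R 4.3.3, E8 TPM with limma 3.58.1 on log2(TPM + 1), and lines with limma on D15 TPM, the Tsix-stop TPM being computed here from counts and GENCODE exon lengths. Genes entered at 2.5 CPM or TPM in at least 2 libraries (alleles: 10 SNP reads a library on average) and were called at a false discovery rate of at most 0.1 and at least 2-fold, adjusted over all genes tested. The study's methods name DESeq2 for this step. It was run here as an alternative (version 1.42.0), beside other filters, scalings, pseudocounts, the *cast* column, the CRISPR control, the replicate number as a term and each library left out. CRISPR control calls took their spread from the other groups. SEs of edgeR values were derived from its F statistic. With 2 libraries against 2, an exact permutation test of 1 gene cannot go below p = 0.333, so none is given. Scripts were tested on simulated data.

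Named were the 10 members in every library, of each list up to 4 called genes with the largest change at D15 in Tsix-stop cells, *Kdm6a*, and the 5 genes most like the members' mean. Members and lists were chosen with earlier results of these data known.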

Additional observations from a re-analysis of the deposited data

Results flagged for a closer look

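The difference between KO and wt was not the same at both days or in both lines for several members, by a test of that difference itself. In Tsix-stop cells the change from D0 to D15, on the log2 scale, was -3.12 for *Myh7*, -2.81 for *Myl4*, -2.94 for *Mef2c* and -2.58 for *Tnni1* (edgeR). *Myh7* and *Mef2c* entered that test only through the wt libraries at D15, where they were high, so a difference was built into their choice and theirs are no support for one. For *Myl4* the sign turned, from higher in KO at D0 to lower at D15. In E8 the change from D7 to D15 was upwards, by 1.62 for *Myl4*, 1.60 for *Myl7* and 1.66 for *Tnnt2* (limma). *Tnnt2* entered that test only through the E8 KO libraries at D15, where it was high, so its value there is no support for a change. Between the lines at D15 (E8 minus Tsix-stop), the effects of KO differed by 3.37 for *Actc1*, 3.19 for *Tnnt2*, 2.90 for *Myh7*, 2.66 for *Tnni1*, 1.66 for *Myl4* and 1.24 for *Myl7*. *Myh7* entered the test between lines only through Tsix-stop wt, and *Tnnt2* only through Tsix-stop wt and E8 KO, so theirs are no support for a difference. The Tsix-stop values rest on the same wt libraries at D15, and the CRISPR control lay below those for 10 of 10 members. Groups here hold at most 2 libraries, so no library was tested as an outlier.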

How the results depend on the processing

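Against the CRISPR control in place of wt, a comparison chosen after seeing the data, the called members were 0 at D0 and 1 at D15 (303 and 902 genes), and the sign turned at D0 for *Myh6* (0.015) and *Actc1* (-1.44) and at D15 for *Myh6* (0.46), *Myl7* (0.98), *Tnnt2* (1.22) and *Tnni1* (2.08). With that library added to wt, called members were 0 at D0 (38 genes), 1 at D15 (1141 genes) and 0 for the change between days (571 genes), and *Actc1* at D0 was -0.0083. With no filter, 1738 genes were called at D0, 3099 at D15, 7713 in wt and 5665 in KO between days, and 2 members in E8 at D15. With 4 libraries required, 4 members were tested, and 4 were called at D15, 3 in wt and 2 in KO between days, and 2 for the change between days. In E8, a pseudocount of 0.1 called 1 member (332 genes) between days in wt and 2 in KO, and rescaling called 1 in KO and turned *Myl4* at D15 to -0.020. With no minimum fold 2294 genes were called for alleles.

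Leaving out each library in turn gave 1 to 4 called members at D0, 6 to 8 at D15, 7 to 8 in wt and 5 to 7 in KO between days, 2 to 6 for the change between days, 0 to 1 in E8 wt and 0 to 2 in E8 KO between days, 5 to 6 between lines, and 409 to 678 genes for alleles. The lowest count at D0 came without wt D0 replicate 2 or KO D0 replicate 2. Members that had not passed turned sign, with these ranges: at D0 *Mef2c* (-0.38 to 0.67), *Tnni1* (-1.42 to 0.21) and *Actc1* (0 to 3.98), in KO between days *Tnni1* (-0.53 to 1.72), for the change between days *Myh6* (-0.32 to 0.47), in E8 *Tnnt2* at D7 (-0.48 to 7.98e-05) and *Myl4* at D15 (-0.14 to 0.39), and for alleles *Myh7* (-1.65 to 0.84), *Tnnt2* (-1.44 to 0.43), *Myh6* (-0.25 to 0.81), *Myl4* (-0.026 to 1.04) and *Nkx2-5* (-1.52 to 0.43). The cause was not tested.

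Replicate numbers did not pair the samples over all groups, since deviations from the group means correlated between -0.21 and 0.23 over pairs of Tsix-stop groups and between -0.16 and 0.12 over E8 groups. The 0.23 was between KO at D0 and at D15, and *Kdm6a* was at 128.6 and 94.1 CPM in replicate 1 and 47.9 and 27.8 CPM in replicate 2 of KO at D0 and D15, so in KO a number may mark a clone, which the labels do not say. With the replicate block, called members were 3 at D0, 8 at D15, 7 in wt and 6 in KO between days, 2 and 1 in E8 at D7 and D15, and 6 between lines. The change between days gained *Actc1* (5 members, adjusted p = 0.0890), as it did with DESeq2 (adjusted p = 0.0512) and with no filter (0.0903), and the block changed no other call. DESeq2, other size factors and the *cast* column moved no count of called members or genes by over 1.5 times.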
